A study of Mus musculus with 8 samples.

Results

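Aminoacyl-tRNA synthetases are the enzymes that join each amino acid to its transfer RNA before the ribosome uses it. The genes described here are the rows of the deposited mouse table whose gene name equals 1 of 35 listed synthetase names, out of 43346 rows in all. They comprise 20 cytosolic enzymes, among them Gars and Kars, whose genes also make the mitochondrial form, and 15 mitochondrial enzymes. Lars2 was left out because its row collects sequence that resembles ribosomal RNA. All 35 passed the filter on low counts, with a lowest mean of 7.73 CPM for Ears2 in 1 group. CPM is counts scaled to a common library total, here by TMM.

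The study asked how a glycine-arginine repeat protein affects the mouse brain. RNA was sequenced from cortex and hippocampus of 8 mice aged 1.5 months, with 1 library per animal. The 4 control mice are labelled GFP, for green fluorescent protein, and the 4 others GFP-GR100, for GFP fused to 100 glycine-arginine dipeptides, a product of the C9orf72 repeat expansion of amyotrophic lateral sclerosis and frontotemporal dementia. Both constructs were built in a vector for adeno-associated virus, per the labels. Which promoter, mouse strain and cells were used is not given in the sources used here, and the level of the transgene was not analysed here. Each group holds 2 females (replicates 1 and 2) and 2 males (replicates 3 and 4), with the numbers given in accession order.

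Total counts ran from 65880460 to 89113010 per library. The dissected tissue weighed 111.4 to 126.6 mg in GFP and 71.9 to 85.1 mg in GFP-GR100, per the labels. Of 12 markers of cortical and hippocampal neurons, all had counts in all libraries, with a summed level of 7607 to 8163 CPM in GFP and 6194 to 8478 CPM in GFP-GR100, and none of them passed the test. In edgeR 6 of 8 microglial markers were higher in GFP-GR100 (339 to 459 against 584 to 651 CPM summed), and 2 of 6 choroid plexus markers were lower (127 to 361 against 31.5 to 87.4 CPM). With GFP 4 left out the choroid plexus count was 5, with GFP-GR100 1 left out it was 3, and it was 1 when GFP-GR100 2, 3 or 4 was dropped. Of 5 ependymal markers 2 were lower, Ccdc153 and Tmem212 (21.6 to 38.7 against 19.4 to 22.6 CPM summed), and 1 of 8 astrocyte markers, Gfap, was higher (3211 to 4190 against 3825 to 4659 CPM summed). None of 7 oligodendrocyte markers was called in the main edgeR fit, but all 7 had log2 fold changes below 0, with a median of -0.30 and 4 at an unadjusted p under 0.05 (6305 to 8287 against 5232 to 8136 CPM summed). In 4 of 17 alternative settings at most 2 of these 7 were called lower, among them 1 with GFP-GR100 4 dropped and 2 in DESeq2. The leukocyte list gave 1 of 10 higher, Ptprc, with 19.3 to 26.3 against 31.1 to 34.05 CPM summed and the T cell marker Cd3g at 0 in at least 1 library. The part of these cells in the synthetase values was not tested. In bulk tissue, fewer cells of a type and less RNA per cell cannot be told apart.

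Each cytosolic synthetase serves the translation of nuclear messages, and a group of them is held in the multisynthetase complex by the scaffold proteins Aimp1, Aimp2 and Eef1e1. The mitochondrial enzymes are encoded by other nuclear genes and charge the transfer RNAs of the organelle. When charged transfer RNA runs short, the kinase Gcn2 (Eif2ak4) phosphorylates eIF2, and the factor Atf4 then raises amino acid transporters, synthetic enzymes and many cytosolic synthetases through C/EBP-ATF response elements. Wars, the tryptophanyl enzyme, is also known as a target of interferon gamma. Mutations in several synthetases, Gars and Yars among them, cause inherited neuropathy in humans.

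Promoters are shown first because the Atf4 and interferon routes act there. RefSeq promoter windows on GRCm38.p6, from 250 bases before to 50 bases after the start, were found for 26 of the 35 genes, Mars through its newer symbol. Cars, Hars, Lars, Nars, Rars, Vars, Wars, Hars2 and Pars2 had no entry. Members are counted by gene, since Aars2 had more than 1 window. The core of the C/EBP-ATF response element, TGATGNAA on either strand, lay in windows of 5 of the 26 matched genes (19.2%), against 3.97% of all 32851 windows of this length. The 5 were Aars, Gars, Iars, Tars and Yars, all cytosolic. Below are the 130 bases before the start of 3 of them and of Farsb, the gene with the smallest adjusted p, whose window held none of the motifs. Capitals mark the response element core and, in Aars, also a gamma-activated site. The Aars stretch is chr8:111033712-111033841 (plus strand), Gars chr6:55037871-55038000 (plus), Tars chr15:11399659-11399788 (minus) and Farsb chr1:78488898-78489027 (minus), each written 5′ to 3′ along the gene.
Aars: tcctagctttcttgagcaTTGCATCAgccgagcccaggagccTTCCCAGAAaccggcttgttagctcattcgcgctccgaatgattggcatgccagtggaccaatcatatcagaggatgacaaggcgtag
Gars: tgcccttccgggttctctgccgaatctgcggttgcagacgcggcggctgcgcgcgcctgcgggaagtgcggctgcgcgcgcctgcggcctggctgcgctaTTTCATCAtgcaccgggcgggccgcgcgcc
Tars: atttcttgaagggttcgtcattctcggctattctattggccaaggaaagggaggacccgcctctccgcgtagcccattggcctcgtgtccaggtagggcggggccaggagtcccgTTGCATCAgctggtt
Farsb: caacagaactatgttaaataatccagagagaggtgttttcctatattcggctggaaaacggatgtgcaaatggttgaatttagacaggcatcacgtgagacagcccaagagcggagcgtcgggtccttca

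In these stretches the element core lay 112 bases before the start in Aars, 30 in Gars and 15 in Tars, in each case on the reverse strand. Aars held another core 9 bases after its start, and the cores of Iars and Yars lay 7 and 3 bases after theirs. The gamma-activated site TTCNNNGAA was in the windows of Aars, Kars and Nars2 (3 of 26, 11.5%, against 8.3% of all windows). The interferon-stimulated response element core, which is GAAA repeated after any 2 bases, was in the window of Qars alone (1 of 26, 3.85%, against 3.44%). Both interferon motifs contain GAA, so matches of the 2 could overlap, but no member's window held both. A match is a description of the sequence, not of a bound site.

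In GFP mice the cytosolic enzymes had higher message levels than the mitochondrial ones. Levels between genes are compared on the deposited RPKM, which divides counts by gene length and library total. The median GFP level was 13.1 RPKM over the 20 cytosolic genes and 4.68 RPKM over the 15 mitochondrial genes, a ratio of 2.80. Of the cytosolic genes, 17 lay above Fars2, the highest mitochondrial gene. The asparaginyl enzyme gene Nars led with 70.1 ± 3.11 RPKM (SD, n = 4), followed by Gars (54.5 ± 5.14), Sars (45.7 ± 5.98), Hars (39.4 ± 4.30) and Wars (28.3 ± 4.20). Nars stood above every value of the others in GFP, whereas the ranges of Gars and Sars, and of Sars and Hars, overlapped. The lowest cytosolic gene was Eprs, the joint glutamyl and prolyl enzyme, at 5.45 ± 0.430 RPKM. Its listed length of 18102 bases, like those of Mars2 (11294) and Aars (9282), lowers its RPKM relative to its count.

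Fars2, for phenylalanine in mitochondria, had 8.09 ± 2.004 RPKM and Iars2, for isoleucine, 7.43 ± 0.388 RPKM in GFP, and their library ranges overlapped. Wars2, the mitochondrial tryptophanyl enzyme, was lowest of all 35 at 1.30 ± 0.148 RPKM, next to Ears2 for glutamate at 1.54 ± 0.133 RPKM. Of 15 pairs for the same amino acid, the cytosolic gene had the higher GFP level in 14, by 1.47 to 22.7 times. Those 14 ratios were widest for asparagine (Nars over Nars2) and tryptophan (Wars over Wars2, 21.8). The exception was Farsa, the catalytic subunit of the cytosolic phenylalanyl enzyme, at 0.749 times Fars2. Fars2 was paired with this subunit only, and the other subunit, Farsb, stood at 21.2 ± 2.78 RPKM in GFP. Eprs entered the pairs of both Ears2 and Pars2. In GFP-GR100 the medians were 12.5 RPKM (cytosolic) and 4.80 RPKM (mitochondrial), and Nars and Wars2 were again the highest and the lowest.

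**Figure D1:**
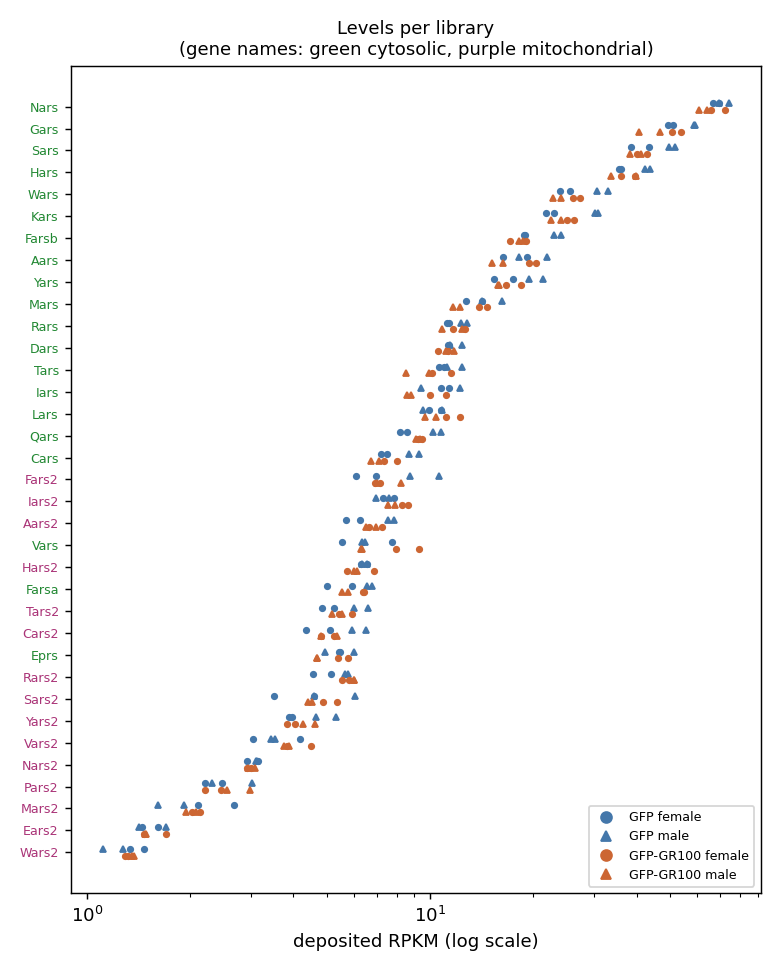
Deposited RPKM (log axis) of the 35 synthetase genes in each library, ordered by GFP mean; circles are females, triangles males, blue GFP and orange GFP-GR100, with cytosolic names in green and mitochondrial names in purple. The cytosolic genes fill the top of the order from Nars at 70.1 RPKM, and Wars2 is last at 1.30 RPKM.

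With GFP-GR100, no synthetase gene passed the test, and those that leaned did so downward and were cytosolic. In edgeR, with p-values adjusted by the Benjamini-Hochberg method over 20987 genes and a threshold of 0.05, 0 of 35 members were called in either direction, beside 2.52% of all genes tested (2.19% higher and 0.324% lower). The same count of 0 was given by DESeq2, limma-voom and limma-trend. At an unadjusted p under 0.05 there were 8 lower members (Farsb, Sars, Gars, Cars, Mars, Wars, Iars and Tars) and 0 higher, beside 7.37% of all genes lower, 8.23% higher and 15.6% in either direction. Dropping GFP 4 or GFP-GR100 2 brought that count of 8 to 1, dropping GFP 3 or GFP-GR100 4 to 2, and dropping GFP-GR100 3 to 4. It was 7 in DESeq2 and limma-voom and 1 in limma-trend on RPKM.

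Log2 fold changes, GFP-GR100 over GFP, were below 0 in 30 of 35 members, beside 54.6% of all genes. The median was -0.12 over the members and -0.02 over all genes tested. The range was narrow, from -0.27 for Farsb to 0.11 for Vars. Each of the 35 fitted 95% intervals lay within 0.5 of 0 on the log2 scale, with -0.47 (Iars) as the lowest bound and 0.33 (Vars) as the highest, so that larger changes of any member's mean between these groups lay outside its interval.

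**Figure D2:**
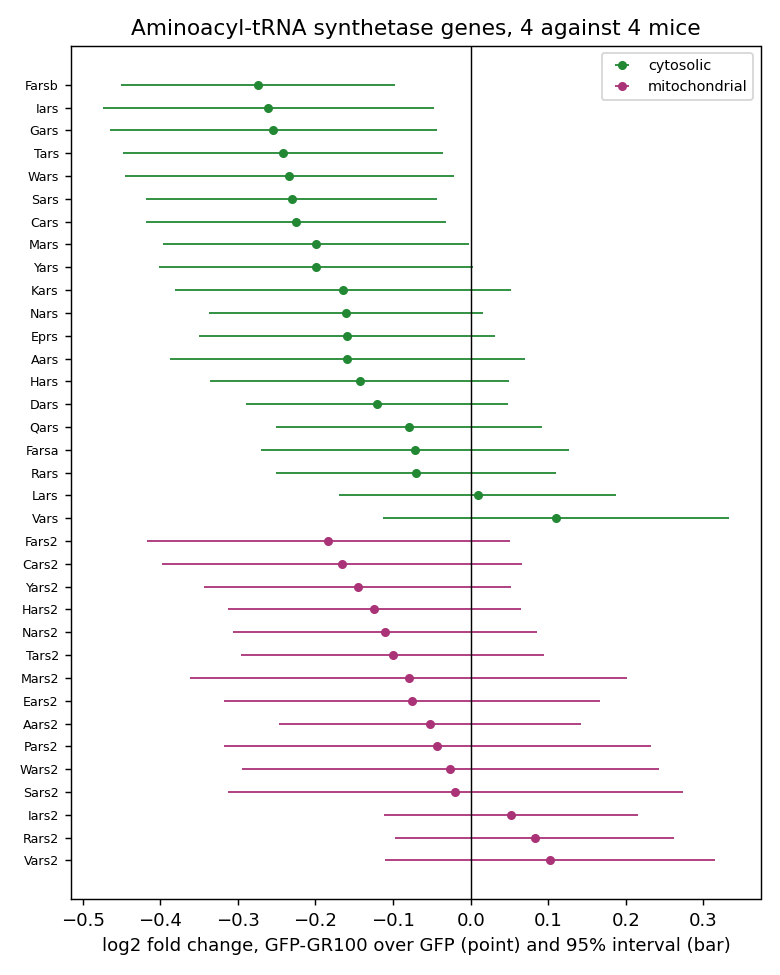
Log2 fold change of each synthetase gene, GFP-GR100 over GFP, with its 95% interval from the edgeR fit (4 against 4 mice); green is cytosolic and purple mitochondrial. Points run from -0.27 for Farsb to 0.11 for Vars and 30 of 35 lie left of 0.

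Farsb, the other subunit of the cytosolic phenylalanyl enzyme, gave the smallest adjusted p. Its levels were 53.4, 50.4, 59.7 and 63.3 CPM in GFP 1 to 4 and 48.5, 42.9, 47.5 and 48.0 CPM in GFP-GR100 1 to 4. It was the only member whose groups did not overlap, beside 3.03% of all genes not overlapping and lower and 5.03% not overlapping and higher. The log2 fold change was -0.27 (SE 0.08, adjusted p = 0.12 in edgeR), and the adjusted p ran from 0.055 with the ribosomal share of each library in the model to 0.43 without GFP 4. Its partner subunit Farsa had 28.1 ± 2.66 CPM in GFP and 26.7 ± 1.58 CPM in GFP-GR100 (SD, n = 4) and a log2 fold change of -0.07 (SE 0.09). The rows of Farsb and Sgpp2 overlap, and whether counting used strand is not given in the sources used here, so reads in such an overlap cannot be assigned with certainty.

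The other cytosolic enzymes outside the multisynthetase complex were spread around a median log2 fold change of -0.21 for that set of 12, with 11 of 12 below 0. Gars, the glycyl enzyme, had 128, 125, 139 and 141 CPM in GFP and 125, 116, 111 and 95.02 CPM in GFP-GR100. Only the first GFP-GR100 female reached the GFP range. The log2 fold change of Gars was -0.25 (SE 0.10, adjusted p = 0.236 in edgeR). Sars, the seryl enzyme, had 152, 162, 186 and 181 CPM in GFP and 153, 140.1, 149.8 and 137 CPM in GFP-GR100, with a log2 fold change of -0.23 (SE 0.09, adjusted p = 0.229). Tars, the threonyl enzyme, had 30.5, 29.5, 29.3 and 32.6 CPM against 29.6, 25.6, 26.2 and 22.0 CPM, and a log2 fold change of -0.24 (SE 0.10). In Sars and Tars as well, 3 of 4 GFP-GR100 libraries lay below the lowest GFP library.

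Cars, for cysteine, had 36.3, 35.6, 39.9 and 43.2 CPM in GFP and 36.1, 32.6, 31.2 and 32.3 CPM in GFP-GR100 (log2 fold change -0.23, SE 0.09). Yars, for tyrosine, had 112 ± 11.8 and 96.95 ± 6.40 CPM (log2 fold change -0.20). These 2 also had 3 of 4 GFP-GR100 libraries below the GFP minimum, and so did Nars, at 189 ± 6.28 and 169 ± 11.5 CPM. Aars, for alanine, and Hars, for histidine, overlapped more, at log2 fold changes of -0.16 and -0.14. Vars, the valyl enzyme, was the exception of this set, with 33.8, 44.5, 35.8 and 35.7 CPM in GFP and 43.2, 49.8, 35.4 and 34.7 CPM in GFP-GR100. The 2 GFP-GR100 females and the female GFP 2 were high in Vars and the 4 males were close together, and its log2 fold change was 0.11 (SE 0.10, adjusted p = 0.616).

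The 8 genes of the multisynthetase complex (Dars, Eprs, Iars, Kars, Lars, Mars, Qars and Rars) had a median log2 fold change of -0.14, with 7 of 8 below 0. Iars, for isoleucine, had 64.9, 57.7, 49.2 and 64.6 CPM in GFP and 56.9, 50.4, 45.2 and 45.5 CPM in GFP-GR100, with GFP 3 within the GFP-GR100 range. Its log2 fold change was -0.26 (SE 0.10, adjusted p = 0.231 in edgeR). Mars, the methionyl enzyme, had 47.5, 49.4, 47.9 and 55.4 CPM against 48.6, 45.5, 41.6 and 39.1 CPM (log2 fold change -0.20, SE 0.09), and its row overlaps that of the stress gene Ddit3. Only 1 GFP-GR100 female was within the GFP range of Mars.

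Kars, the lysyl enzyme, split the GFP mice by sex, with 53.2 and 52.8 CPM in females and 68.6 and 68.3 CPM in males, against 57.5, 53.8, 54.1 and 49.7 CPM in GFP-GR100. Its log2 fold change was -0.16 (SE 0.10). Lars, for leucine, was nearest to 0 of all 35, at 40.5 ± 2.79 and 40.8 ± 3.82 CPM (log2 fold change 0.01, adjusted p = 0.967). The remaining 4 were Eprs (-0.16), Dars for aspartate (-0.12), Qars for glutamine (-0.08) and Rars for arginine (-0.07), all on the log2 fold change scale. By the 2 structural classes of synthetase, 17 of 17 class II genes and 12 of 17 class I genes lay below 0, with medians of -0.14 and -0.08, and Eprs, with a domain of each, was left out of both. The 5 cytosolic genes with the response element core had a median log2 fold change of -0.24 (range -0.26 to -0.16). The 8 matched cytosolic genes without it had a median of -0.16 (range -0.27 to -0.07), so the ranges overlapped.

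**Figure D3:**
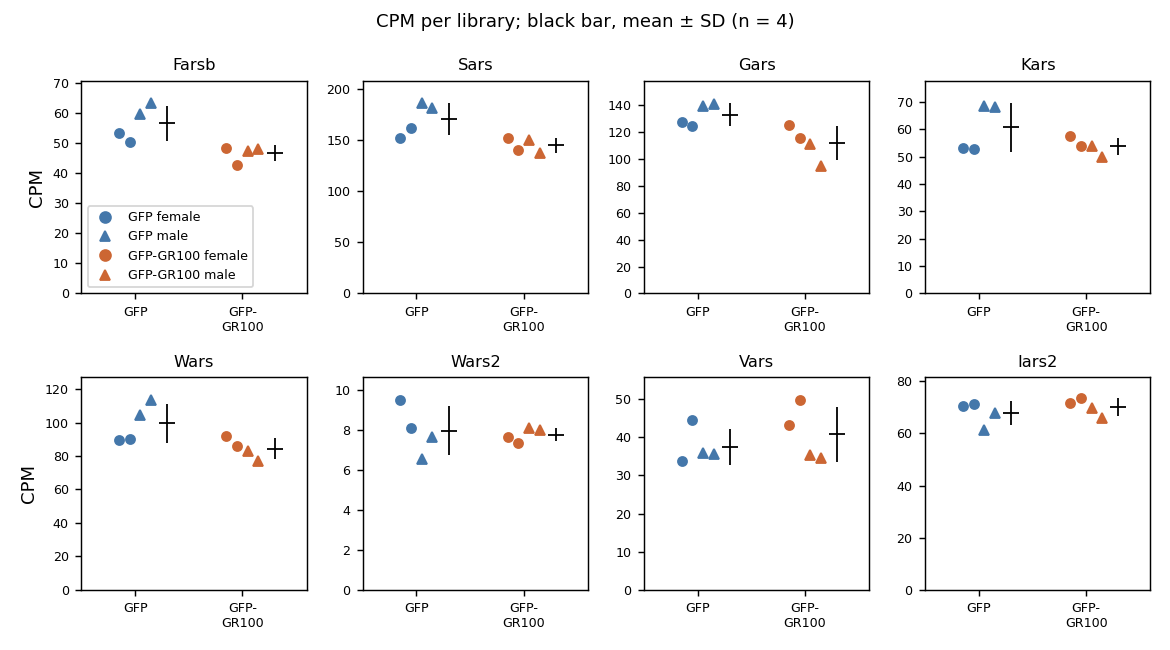
CPM of 8 synthetase genes in each library (circles females, triangles males; blue GFP, orange GFP-GR100), with the mean ± SD of each group of 4 mice as a black bar; each vertical axis starts at 0. The groups are apart in Farsb alone, at 50.4 to 63.3 against 42.9 to 48.5 CPM.

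Among the mitochondrial enzymes 12 of 15 log2 fold changes were below 0, with a median of -0.08, and 0 of 15 reached an unadjusted p under 0.05. Fars2 had the lowest value, -0.18 (SE 0.11, adjusted p = 0.425 in edgeR), from 14.0, 15.1, 22.3 and 18.6 CPM in GFP and 14.7, 14.1, 17.5 and 14.6 CPM in GFP-GR100. The 2 GFP males were high and all 4 GFP-GR100 libraries lay below the GFP mean. Cars2 (-0.17), Yars2 (-0.15), Hars2 (-0.12), Nars2 (-0.11) and Tars2 (-0.10) followed on the log2 fold change scale. The rows of Hars2 and Hars overlap.

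Above 0 lay 3 mitochondrial genes. Vars2 had 18.1, 23.4, 18.6 and 19.3 CPM in GFP and 20.3, 23.6, 20.5 and 20.8 CPM in GFP-GR100 (log2 fold change 0.10, SE 0.10). Rars2, the arginyl enzyme mutated in a human pontocerebellar hypoplasia, had 14.9 ± 0.950 and 15.8 ± 0.849 CPM (0.08, SE 0.08). Iars2, which has the highest count of the mitochondrial set, had 67.7 ± 4.59 and 70.1 ± 3.28 CPM (0.05, SE 0.08), and its row overlaps that of Rab3gap2. The remaining 6 (Mars2, Ears2, Aars2, Pars2, Wars2 and Sars2) lay between -0.08 and -0.02. Of these, Mars2 varied most between GFP mice, at 33.0, 24.3, 18.1 and 21.8 CPM, against 22.3, 23.1, 22.0 and 23.0 CPM in GFP-GR100.

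Compared as sets, the cytosolic genes were lower in GFP-GR100 by more than the mitochondrial genes, within a spread that overlapped. The summed level of the 20 cytosolic genes was 1552, 1566, 1631 and 1759 CPM in GFP and 1569, 1451, 1427 and 1326 CPM in GFP-GR100, a ratio of means of 0.887. GFP-GR100 1 was within the GFP range and the other 3 GFP-GR100 libraries were below it. The summed level of the 15 mitochondrial genes was 293.7, 288.4, 289.9 and 298.1 CPM in GFP and 286.2, 282.1, 287.6 and 279.2 CPM in GFP-GR100, a ratio of 0.970 with no overlap. As a share of all counts, ribosomal rows included, the mitochondrial sums did overlap, at 0.0270 to 0.0297% in GFP and 0.0284 to 0.0295% in GFP-GR100. Cytosolic over mitochondrial summed CPM was 5.28 to 5.90 in GFP and 4.75 to 5.48 in GFP-GR100, so the groups overlapped.

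The medians of the log2 fold changes differed by -0.09 (cytosolic minus mitochondrial), and by -0.13 to -0.07 over the 17 alternative settings. Fitted within each sex, the cytosolic and mitochondrial medians were -0.34 and -0.08 in males and -0.05 and -0.04 in females. Within the 15 pairs for the same amino acid the cytosolic gene had the lower log2 fold change in 13, with a median difference of -0.11. Isoleucine gave the widest gap (Iars minus Iars2, -0.31), and Farsa minus Fars2 went the other way at 0.11. Farsb, which was not paired, had a log2 fold change of -0.27, against -0.18 for Fars2. Genes of 1 pair share the same 8 mice, so these are descriptions and not independent tests.

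Wars did not rise with GFP-GR100. It had 89.75, 90.1, 105 and 114 CPM in GFP and 91.8, 85.9, 82.8 and 77.2 CPM in GFP-GR100. The 2 GFP males were highest and 3 of 4 GFP-GR100 libraries lay below the lowest GFP library. The log2 fold change was -0.23 (SE 0.10, 95% interval -0.45 to -0.02, adjusted p = 0.277 in edgeR), the fifth lowest of the 35 members. The adjusted p ran from 0.0805 with the ribosomal share in the model to 0.701 without GFP 4, where the log2 fold change was -0.14.

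Against the mean log2 CPM of the other 19 cytosolic genes in the same library, Wars was higher by 0.48, 0.48, 0.65 and 0.66 in GFP and by 0.49, 0.50, 0.47 and 0.47 in GFP-GR100. The 2 GFP males were high on this measure and the other 6 libraries lay between 0.47 and 0.50. Wars2 had 9.50, 8.09, 6.55 and 7.62 CPM in GFP and 7.62, 7.34, 8.06 and 7.99 CPM in GFP-GR100, a log2 fold change of -0.03 (SE 0.12, adjusted p = 0.933). The CPM of Wars over that of Wars2 was 9.45 to 16.0 in GFP and 9.65 to 12.04 in GFP-GR100, with overlapping groups.

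Of 23 other genes known to respond to interferon gamma, 7 rose in the same libraries. In edgeR 0 of the list were called lower (0 also at an unadjusted p under 0.05, in DESeq2 and in limma, and 1 with no filter on low counts), with a median log2 fold change of 1.21. The count was 14 without GFP 3 and between 5 and 7 with any other library left out. In the main fit 20 of the 23 lay above 0. Below 0, and not called, were Cd74 (-1.23), Ciita (-0.23) and Ifngr2 (-0.12) on the log2 fold change scale. Ido1 (0.20), Gbp2 (0.67) and Cxcl9 (1.21) were not called either, and their groups overlapped. Which interferon, if any, raised the 7 was not tested. Gbp3, a guanylate-binding protein of antimicrobial defence, had 9.30, 6.13, 10.01 and 4.62 CPM in GFP and 35.3, 34.9, 40.2 and 35.9 CPM in GFP-GR100, so every GFP-GR100 library was above the GFP range (log2 fold change 2.28, SE 0.24, adjusted p = 0.00176). Its relative Gbp7 also rose (5.57 ± 1.63 to 16.8 ± 1.98 CPM, 1.62 on the log2 fold change scale). Irf1, an interferon-induced transcription factor, had 6.998 ± 1.95 and 10.04 ± 1.22 CPM and did not pass in the main edgeR fit (log2 fold change 0.52, adjusted p = 0.112). Over the tests of the 17 alternative settings its adjusted p ran from 0.0031 to 0.266, and the result differed from the main fit in 4. Its log2 fold change there was 0.43 to 0.71. In contrast to Gbp3, no GFP-GR100 library of Wars exceeded the GFP range. Gbp2, Cd74, Ciita and Ifngr2 of the list also had no GFP-GR100 library above the GFP range. The part of the higher microglial and leukocyte markers in these values was not tested.

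**Figure D4:**
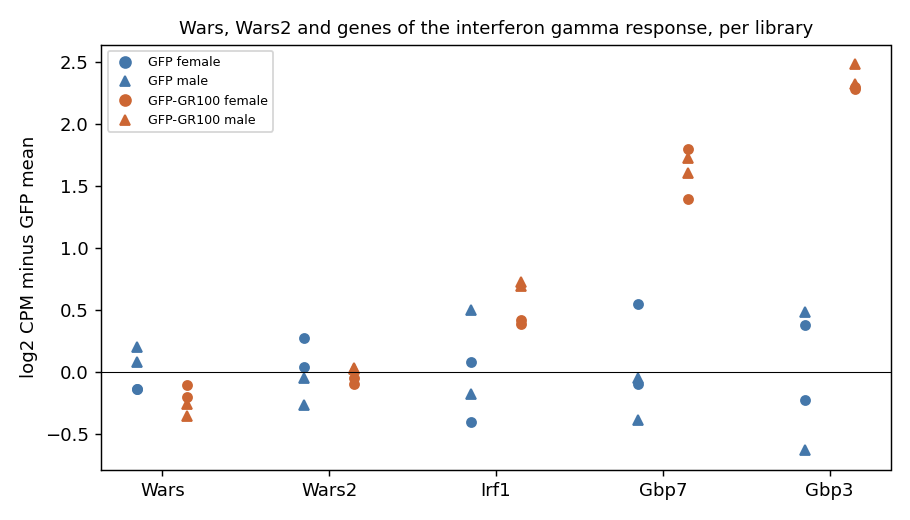
Log2 CPM of each library minus the mean of the 4 GFP libraries, for Wars, Wars2 and 3 genes of the interferon gamma response (circles females, triangles males; blue GFP, orange GFP-GR100). Gbp7 and Gbp3 separate the groups, whereas Wars spans GFP values of 89.75 to 114 CPM and GFP-GR100 values of 77.2 to 91.8 CPM.

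The proteins that work with synthetases gave no calls. Of 11 partners, among them the complex scaffolds, the D-tyrosyl-tRNA deacylases and the formyltransferase of mitochondrial initiator tRNA, edgeR called 0 (0 also at an unadjusted p under 0.05 and 0 in DESeq2 and limma), with a median log2 fold change of -0.11. Aimp2, the complex scaffold, had the smallest p of the list, with 26.3 ± 4.27 and 22.0 ± 2.78 CPM (log2 fold change -0.24, adjusted p = 0.366).

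Among genes of the amino acid response, of which many cytosolic synthetases are themselves targets, few calls were made. Of 27 tested, 1 was called higher and 0 lower, with a median log2 fold change of -0.10. The called gene was Atf3, a stress-induced transcription factor, at 1.15, 1.65, 1.61 and 0.744 CPM in GFP and 3.21, 2.79, 3.09 and 2.94 CPM in GFP-GR100 (log2 fold change 1.22, SE 0.23, adjusted p = 0.0105). Atf4 itself had 130.3 ± 12.3 and 115 ± 9.40 CPM (-0.18, adjusted p = 0.328), and Ddit3 had 25.2 ± 5.20 and 25.5 ± 2.18 CPM (0.03). Asns, asparagine synthetase, which makes the amino acid that Nars uses, had 99.1, 95.5, 103 and 109 CPM in GFP and 92.4, 84.1, 85.9 and 71.7 CPM in GFP-GR100. Its groups did not overlap, and its log2 fold change was -0.28 (SE 0.09, adjusted p = 0.166). Of 12 genes for eIF2, its exchange factor eIF2B and the eIF2 kinases, 1 rose, the interferon-induced kinase Eif2ak2 (6.11 ± 1.82 to 24.3 ± 1.77 CPM, log2 fold change 2.02, adjusted p = 7.96e-05). The kinase of the amino acid response, Eif2ak4, had 23.1 ± 3.28 and 23.3 ± 2.098 CPM (log2 fold change 0.02).

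Fitted within each sex, the cytosolic genes were lower with GFP-GR100 in males, with smaller differences in females, but the difference between the sexes was called for none of them. The effect in males, from a fit in which the group effect could differ by sex, was below 0 in 20 of 20 cytosolic genes, with a median log2 fold change of -0.34. In females it was below 0 in 14 of 20, with a median of -0.05. Over all genes tested, 49.7% were below 0 in males and 57.1% in females. The mitochondrial medians were -0.08 in males and -0.04 in females.

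In males 7 cytosolic genes fell in edgeR, beside 9.33% of all genes called in males in either direction. They were Wars (-0.45, adjusted p = 0.0197), Gars (-0.44, adjusted p = 0.0274), Kars (-0.40, adjusted p = 0.028), Cars (-0.39), Farsb (-0.37), Yars (-0.37) and Sars (-0.36). In females 0 members were called, beside 0.881% of all genes, with 1 member, Mars2 (-0.34), at an unadjusted p under 0.05. DESeq2 called 8 in males and 0 in females. Each sex has 2 mice a group, and the male count depended on single libraries. With GFP 4 dropped the count was 0, and so it was with GFP-GR100 1, 2 or 4 dropped. With GFP 1 or GFP 2 dropped it was 3 (Gars, Kars and Wars). The genes also changed. With GFP-GR100 3 dropped the 5 called were Gars, Kars, Sars, Tars and Wars, and with GFP 3 dropped the 6 called were Aars, Cars, Iars, Mars, Wars and Yars. Female libraries enter these numbers through the shared estimate of the spread.

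The difference between the sexes was called for 0 of 35 members, beside 0.0524% of all genes. The male effect was the lower in 27 of 35 members, beside 46.5% of all genes, and 8 had an unadjusted p under 0.05 (Aars, Cars, Farsa, Gars, Kars, Wars, Yars and Mars2), beside 16.4% of all genes. DESeq2 also called 0. The smallest adjusted p was 0.146 for Kars. Of the 7 genes called in males, Wars and Gars had female log2 fold changes of -0.02 and -0.07.

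The share of counts at 3 ribosomal-RNA-like rows moved with the groups within each sex. It was 11.4% and 6.74% in GFP females against 3.20% and 2.76% in GFP-GR100 females, and 3.80% and 3.54% in GFP males against 8.77% and 9.83% in GFP-GR100 males. With this share in the model 0 members were called in males, and the male median of the cytosolic genes was -0.26. Within a sex the group and this share separate the same libraries, so the 2 cannot be told apart. Over both sexes the shares overlapped, and the cytosolic median of -0.16 was -0.17 with the share in the model.

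**Figure D5:**
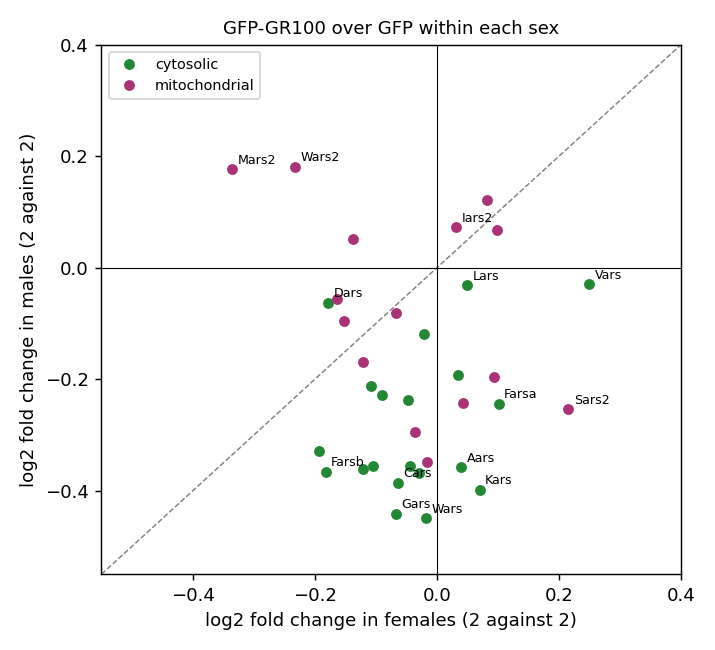
Log2 fold change, GFP-GR100 over GFP, in females (horizontal axis) and males (vertical axis) for each synthetase gene, 2 against 2 mice a sex; green is cytosolic, purple mitochondrial, and the dashed line marks equal effects. The 20 cytosolic points all lie below 0 on the male axis, with Wars lowest at -0.45.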

How the data were processed

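Total RNA of 8 mouse libraries was prepared with a stranded kit and read from both ends, per the labels' protocols. The authors deposited 1 table with raw counts per gene and RPKM values, per the file headers. TopHat2 2.1.0, the mm10 build, CASAVA, DESeq2 and R 3.4.1 are named in the submitters' processing notes. What counted the reads, on which annotation and with or without strand, is not given in the sources used here. Per the file headers and values, the authors' RPKM values are scaled to the summed counts.

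Counts were tested with edgeR 4.0.16 (R 4.3.3, limma 3.58.1): TMM scaling, filterByExpr (minimum count 10, minimum total 15), sex and group in a robust quasi-likelihood model, Benjamini-Hochberg adjustment and a threshold of 0.05. For the sex effects, the model also held an interaction term. DESeq2 1.42.0, limma-voom, limma-trend on RPKM (log2, pseudocount 0.1), other scalings and filters (among them a mean of at least 1 CPM), no sex covariate, the ribosomal share as a covariate and leaving out libraries were alternatives. For the effects within a sex and their difference, DESeq2 size factors, the ribosomal share and left-out libraries were added after seeing the data. No pair of libraries in a group agreed within sampling noise (lowest chi-square per degree of freedom 15.6). Each SE is the log2 fold change divided by the root of its F statistic. Values given with ± are mean ± SD.

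All 35 members are named. Of each companion list the called genes, at most 3 by smallest p, or the gene with the smallest p, are named, with Irf1, Atf4, Asns and Ddit3 in any case; 1 further gene the rule names is not reported here. Eif2ak4 and the lists' other named genes outside this rule were chosen after their values were seen. The members and lists were chosen with earlier results of these data known. Promoter windows are from RefSeq.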

Additional observations from a re-analysis of the deposited data

Results flagged for a closer look

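In 2 of 70 groups of 4 libraries (35 genes in 2 groups), 1 library stood far from the other 3 by Dixon's ratio, where chance gives about 1 in 20. Lars, the leucyl enzyme of the multisynthetase complex, had 36.4 CPM in GFP 3 against 41.5 to 42.5 CPM in the other GFP mice. Vars2, the mitochondrial valyl enzyme, had 23.6 CPM in GFP-GR100 2 against 20.3 to 20.8 CPM in the other GFP-GR100 mice. The cause of either was not tested.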

How the results depend on the processing

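The count of 0 called synthetases held under all 17 alternatives of the group comparison, and the sign of the Wars value and of the cytosolic minus mitochondrial difference held in each. Fitted within females, the cytosolic median was not the lower one without GFP 1 (-0.045 cytosolic, -0.062 mitochondrial) or without GFP-GR100 2 (0.044 and 0.0078). Among single genes, reversed signs belonged to those near 0. Under the filter at a mean of 1 CPM, the Sars2 log2 fold change was 0.0195 and the Wars2 log2 fold change 0.0134. With limma-trend on RPKM, Aars2 was at 0.0138, Pars2 0.0271, Sars2 0.0561 and Wars2 0.0409. With 1 library left out, or GFP 3 and GFP-GR100 4 together, the range was -0.139 to 0.0180 for Farsa, -0.00977 to 0.0843 for Lars, -0.107 to 0.00844 for Qars, -0.0928 to 0.0171 for Aars2, -0.103 to 0.00933 for Ears2, -0.188 to 0.0644 for Mars2, -0.115 to 0.0621 for Pars2, -0.125 to 0.152 for Sars2, -0.0970 to 0.0611 for Wars2 and -0.0563 to 0.135 for Ddit3. The cause was not tested. The count called in males was 7, 0 with the ribosomal share as a covariate, and 0 to 6 with 1 library left out. Of the promoter motifs, a longer form of the interferon-stimulated element matched 0 members and a stricter gamma-activated site, TTCCNGGAA, matched 1. The interferon gamma count of 7 was 16 with no filter and 13 with DESeq2. No paired analysis was possible because the labels give no replicate numbers shared by the groups. With 4 mice a group, and 2 within a sex, the number of animals rather than depth limits the precision.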
